A study of Mus musculus with 12 samples.

Results

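The Notch genes described here are 10 of the 52636 genes counted in lung lymphatic endothelial cells (LECs) of mice: the receptor genes Notch1, Notch2 and Notch4, the ligand genes Dll1, Dll4, Jag1 and Jag2, and the target genes Hes1, Hey1 and Hey2. They were chosen by name, as textbook members of the pathway in endothelium, and all 10 were among the 21440 genes with enough counts to be tested. LECs were sorted from the lungs of Prox1-EGFP reporter mice, in which regulatory sequence of Prox1 drives green fluorescent protein, as live cells without blood lineage or EpCAM staining that carried CD31 and the reporter. Mice breathed room air (RA) or whole-body cigarette smoke (CS) on 5 days a week from 6 weeks of age, for 8 weeks in the acute groups and for at least 24 weeks in the chronic groups. The labels give the former as an age of 8wk and the latter as Aged. There were 2 acute RA, 2 acute CS, 3 chronic RA and 5 chronic CS libraries, which are named by sex (F, M) and number as labelled. Each acute library pooled LECs of 2 to 5 mice, whereas chronic libraries came from single mice. All mice, controls included, carried the reporter, and the gate rests on the activity of Prox1 itself.

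Notch receptors are cell surface proteins that are cut when a ligand on a neighbouring cell binds and pulls on them. The freed intracellular part enters the nucleus, joins the DNA-binding protein RBPJ and switches on genes such as those of the Hes and Hey families, which encode repressors of transcription. In blood vessels the pathway sorts tip from stalk cells and sets arterial identity. In lymphatic endothelium it is known for restraining Prox1 and sprouting and for a part in valve formation.

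The promoters of the Notch genes were searched for the letters that RBPJ is known to bind. Of the 10 genes, 8 had an entry in the RefSeq promoter table (GRCm38.p6), all but Hes1 and Hey1, and the 250 bases before the start of transcription were searched on both strands for the RBPJ motifs GTGGGAA and GTGAGAA. One of the 8 genes, Hey2, held a match, and so did 9.01% of all 32851 promoters in the table over the same stretch. With the shorter TGGGAA, which lies inside GTGGGAA, Hey2 was again the 1 gene with a match, against 21.6% of all promoters. Hey2 is shown for that match (chr10:30842784-30843033, minus strand), with the motif in capitals as it reads on the strand of the gene, where it is the reverse complement of GTGGGAA. Notch4 (chr17:34564045-34564294, plus strand) is shown as the receptor gene whose level differed with smoke, and Dll4 (chr2:119325534-119325783, plus strand) as the ligand gene with the highest level per length. A match is a description of letters, and its absence says only that these letters were not in the window.
Hey2: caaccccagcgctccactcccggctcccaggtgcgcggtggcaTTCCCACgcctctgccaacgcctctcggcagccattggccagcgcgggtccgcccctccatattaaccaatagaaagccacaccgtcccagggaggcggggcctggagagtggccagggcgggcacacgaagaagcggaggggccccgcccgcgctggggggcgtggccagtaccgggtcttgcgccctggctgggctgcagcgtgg
Notch4: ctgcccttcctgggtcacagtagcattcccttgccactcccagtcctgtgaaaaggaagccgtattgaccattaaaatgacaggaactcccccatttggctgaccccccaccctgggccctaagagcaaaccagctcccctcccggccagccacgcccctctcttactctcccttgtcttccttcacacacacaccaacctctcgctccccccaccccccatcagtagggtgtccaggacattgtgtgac
Dll4: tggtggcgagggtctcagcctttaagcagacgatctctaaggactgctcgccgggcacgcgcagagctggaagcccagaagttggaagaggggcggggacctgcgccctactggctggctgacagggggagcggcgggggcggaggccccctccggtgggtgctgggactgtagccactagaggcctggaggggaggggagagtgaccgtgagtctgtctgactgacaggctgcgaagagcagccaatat
Of these bases 58.4% were G or C in Notch4, with 4 CpG pairs, against 71.6% and 22 pairs in Hey2 and 65.6% and 14 pairs in Dll4. The median over all promoters in the table was 52.4%.

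Total counts per library ranged from 18821438 (chronic CS F) to 56998590 (acute RA F), and chronic CS F, M1 and M2 were sequenced less deeply than the other 9 libraries. Levels are CPM (counts scaled to library size and edgeR's TMM factors), and 3 counts, the level below which a gene is not told from absence, are 0.0526 to 0.159 CPM when scaled to total counts without TMM factors. This floor covers counting error only. The sort was checked against 8 lymphatic markers, whose summed level was 13628 to 15421 CPM in acute RA, 18669 to 21391 CPM in chronic RA and 13731 to 20059 CPM in chronic CS, but 5952 to 9159 CPM in acute CS. Of the 8 markers 2 passed the test in acute CS, both lower, and the median log2 fold change of the list was -1.05. Prox1 fell by 1.03 and Flt4 by 1.10 on the log2 scale in acute CS against acute RA (adjusted p = 0.00797 and 0.0204 by edgeR). Mmrn1, which made up the largest part of the sum, was counted at 7339 CPM on average in acute RA and 3469 CPM in acute CS (adjusted p = 0.0617 by edgeR). Lyve1 alone of the 8 had a higher mean in acute CS, 777 CPM against 489 CPM (adjusted p = 0.307 by edgeR). Ccl21a, the chemokine gene of lymphatic endothelium, which has near-identical copies whose shared reads the counting can leave out, was close to absent in every library, at 4 to 24 counts. The 2 acute CS libraries therefore stand apart in the summed markers of the sort. In RNA of a bulk sort, fewer cells of a type and less RNA per cell cannot be told apart.

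In RA, Hes1 led the targets, Dll4 the ligands and Notch1 the receptors. Levels per length (FPKM, computed from the union of exons) were highest for Hes1, at 147 ± 28.4 FPKM (SD, n = 5 RA libraries), and next for Dll4, the ligand of tip cells and arteries, at 101 ± 6.47 FPKM. Notch1 followed at 22.0 ± 4.78 FPKM, Jag2 at 16.6 ± 2.19 FPKM and Jag1 at 15.6 ± 2.58 FPKM. Notch2, Dll1 and Hey1 lay at 9.14 ± 0.666, 8.78 ± 1.66 and 8.19 ± 1.80 FPKM, and Notch4 at 3.24 ± 0.151 FPKM. Hey2 was lowest at 0.0555 ± 0.0668 FPKM. In this order the ranges of Notch1 and Jag2, of Jag2 and Jag1, of Notch2 and Dll1 and of Dll1 and Hey1 overlapped, whereas every other pair of neighbours was separated in all 5 libraries.

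**Figure D1:**
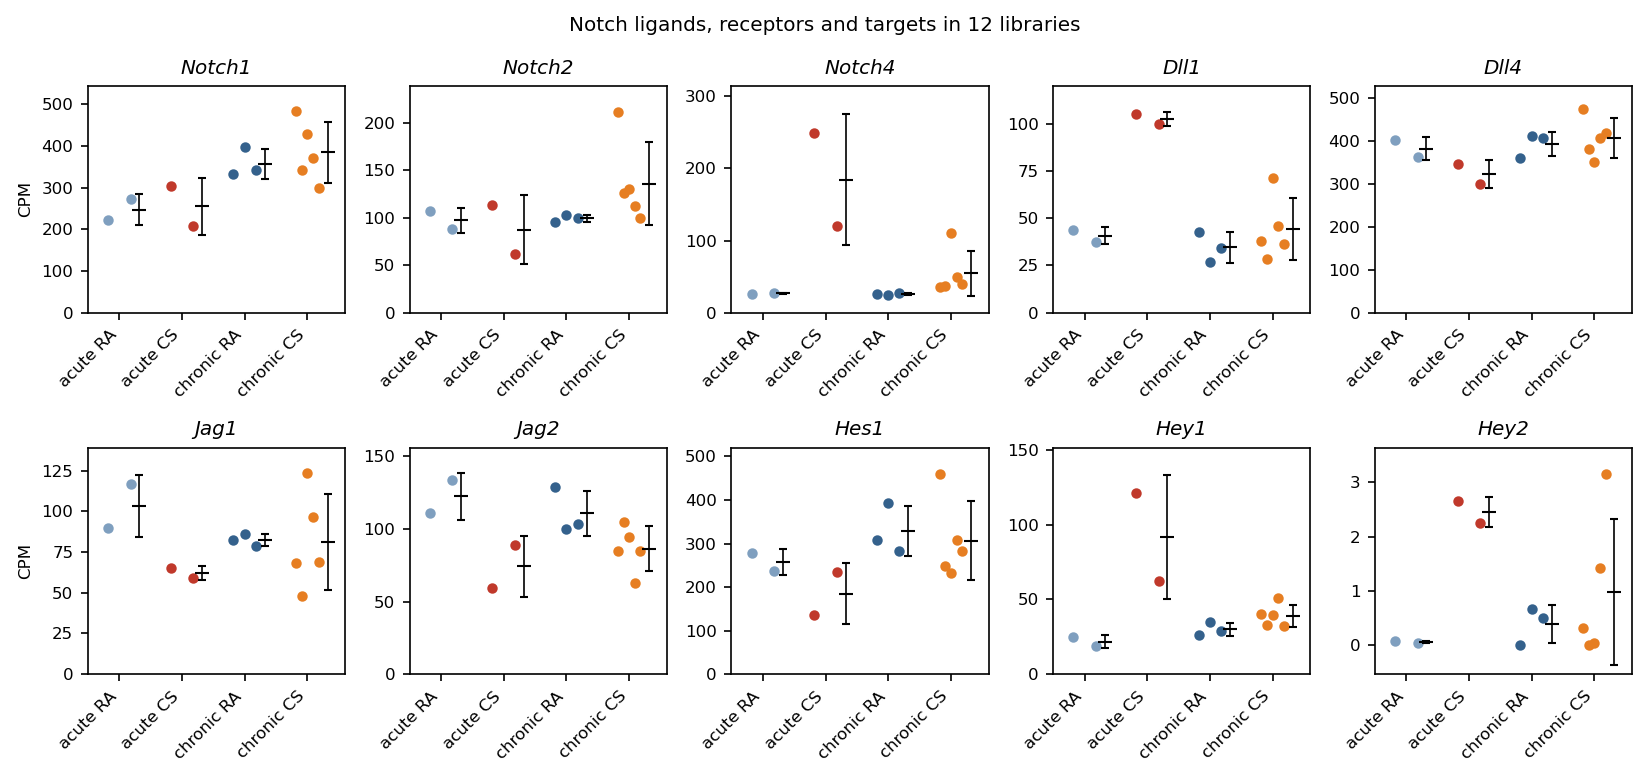
CPM (linear axes, each with its own range) of the 10 Notch genes in each library by group, with 1 point per library and the mean ± SD of the group as a black bar beside the points. In the 5 RA libraries Notch4 ranged from 24.5 to 27.4 CPM, and it stood at 120 and 249 CPM in acute CS. Hey1 stood at 62.6 and 121 CPM in acute CS against at most 34.7 CPM in RA.

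The first comparison asks what 8 weeks of CS did to these genes. Notch4 and Hey1 rose in acute CS, which is 2 of the 10 genes, both higher, while 3.47% of all genes tested differed at an adjusted p under 0.05, 2.75% higher and 0.723% lower. The other 8 did not pass. At an unadjusted p under 0.05 there were 5, Notch4, Hey1, Dll1 and Hey2 higher and Jag2 lower, against 15.7% of all genes (10.7% higher and 5% lower). The median log2 fold change of the 10 genes was -0.05, beside 0.04 for all genes tested. The groups of 2 libraries did not overlap for 8 of the 10 genes, 4 higher and 4 lower, against 49.9% of all genes tested (27.4% higher and 22.5% lower). Where nothing says that libraries of a group came from separate exposures, p-values measure the spread between libraries. That spread was estimated from all 12 libraries in one fit. It therefore draws on the chronic libraries of single mice as well as on the acute pools.

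Among the receptors, Notch4, which is largely restricted to endothelium, was counted at 26.3 and 27.4 CPM in acute RA F and M and at 249 and 120 CPM in acute CS F and M. Both smoke libraries lay far above both controls, and the female smoke library was the higher. The log2 fold change was 2.78 (standard error, SE, 0.54, or 6.87-fold, with a Benjamini-Hochberg adjusted p = 0.0188 in the quasi-likelihood F-test of edgeR). Notch1, the receptor with the highest level per length in RA, was counted at 221 and 273 CPM in acute RA and at 303 and 207 CPM in acute CS, so the groups overlapped, with a log2 fold change of 0.05 (SE 0.24, adjusted p = 0.975 by edgeR). Notch2, the other widely expressed receptor, was counted at 107 and 88.1 CPM in acute RA and at 113 and 61.7 CPM in acute CS, again with overlap, and a log2 fold change of -0.15 (SE 0.34, adjusted p = 0.919 by edgeR). As a share of the FPKM summed over the 3 receptors, Notch4 went from 11.1% and 11.4% in the acute RA libraries to 42.4% and 49.3% in acute CS, and Notch1 from 54.1% to 62.3% down to 34.0% to 41.3%.

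The call for Notch4 was lost without acute CS F (log2 fold change 2.16, adjusted p = 0.133 by edgeR), acute RA F (2.75 and 0.159) or acute RA M (2.78 and 0.171), where a group of 1 library is assumed to vary like the others, and when the 4 acute libraries were fitted alone (2.77 and 0.0764). The call for Hey1 was lost without the same libraries, with log2 fold changes of 1.52, 2.31 and 1.84, and in the acute libraries alone (2.07, adjusted p = 0.102 by edgeR). Both calls were also lost when same-labelled replicates were fitted as blocks, where 0 of the 10 genes were called.

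Among the ligands none passed the adjusted test. Dll1, a ligand with low levels here in RA, was counted at 44.0 and 37.6 CPM in acute RA F and M and at 105 and 99.8 CPM in acute CS F and M. Both smoke libraries lay above both controls and close to each other, with a log2 fold change of 1.33 (SE 0.36, adjusted p = 0.0766 by edgeR); DESeq2 gave an adjusted p of 0.00735. Dll4 was counted at 402 and 363 CPM in acute RA and at 346 and 300 CPM in acute CS, without overlap but with a log2 fold change of -0.24 (SE 0.15, adjusted p = 0.511 by edgeR). Without single libraries that change spanned -0.35 to -0.14. Jag2 was counted at 111 and 134 CPM in acute RA and at 59.1 and 89.2 CPM in acute CS, and its log2 fold change was -0.72 (SE 0.25, unadjusted p = 0.0148 and adjusted p = 0.173 by edgeR). For Jag2 the change spanned -1.05 to -0.46 without single libraries. Jag1, the ligand that mural cells and endothelium share, was counted at 89.8 and 116 CPM in acute RA and at 65.2 and 59.3 CPM in acute CS, with a log2 fold change of -0.73 (SE 0.34, adjusted p = 0.341 by edgeR). Both Jagged genes thus lay lower in both smoke libraries, by an amount that did not pass. Dll1 made up 6.26% and 7.13% of the summed FPKM of the ligands in acute RA and 18.5% and 19.0% in acute CS, while Dll4 remained the largest share at 62.5% to 71.4% in these 4 libraries.

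Among the targets, Hey1, a repressor of the Hairy family with a role in arterial identity, was counted at 25.01 and 18.6 CPM in acute RA F and M and at 121 and 62.6 CPM in acute CS F and M. The smoke libraries lay above both controls, with the female one again the higher, and the log2 fold change was 2.08 (SE 0.32, 4.22-fold, adjusted p = 0.00824 by edgeR). Hes1, which answers many signals besides Notch, was counted at 279 and 237 CPM in acute RA and at 135 and 234 CPM in acute CS. Acute CS M lay just under the lower control, and the log2 fold change was -0.48 (SE 0.33, adjusted p = 0.563 by edgeR). Without single libraries that change spanned -0.94 to -0.14. Hey2, the partner of Hey1 in arterial cells, was close to absence in acute RA, at 4 and 2 counts, or 0.0676 and 0.0378 CPM. It reached 135 and 104 counts in acute CS, or 2.65 and 2.26 CPM. The fitted log2 fold change of 5.45 (SE 2.38, adjusted p = 0.292 by edgeR) did not pass and depends on the prior count at such low levels. Hey1 made up 4.67% and 5.29% of the summed FPKM of the targets in acute RA and 35.7% in the female and 14.3% in the male library of acute CS.

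**Figure D2:**
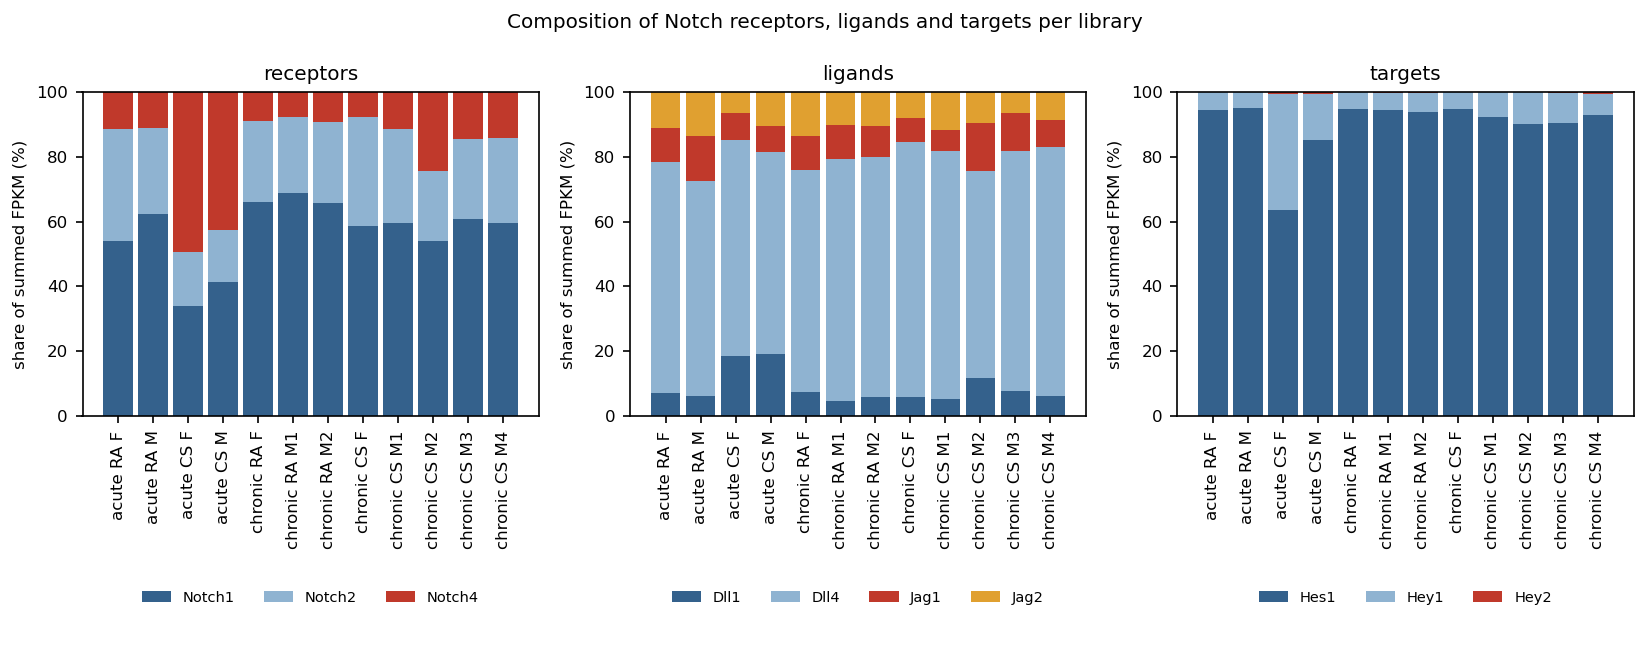
Share of each gene (%, bars stacked to 100) in the FPKM summed over the 3 receptors, the 4 ligands and the 3 targets, with 1 bar per library. Notch4 held 42.4% and 49.3% of the receptor sum in acute CS and 24.4% in chronic CS M2, against at most 11.4% in RA.

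Markers of other cell types also differed in acute CS. Of 10 lung capillary markers, 7 were higher in acute CS by the same test, with a median log2 fold change of 3.07 over the list. Their summed level without Plvap, which made up most of the sum in RA and was left out after its level had been seen, was 455 to 544 CPM in acute RA and 1999 to 4598 CPM in acute CS, with acute CS F the higher; with Plvap it was 2671 to 3508 CPM and 5005 to 7317 CPM. Of 5 venous markers 3 were higher (234 to 340 CPM in sum in acute RA, 1450 to 2634 CPM in acute CS), and of 11 markers of mural cells and fibroblasts 6 (90.1 to 164 CPM and 492 to 778 CPM). In both of these sums acute CS M was the higher, unlike in Notch4 and Hey1. Of 8 arterial markers 2 were higher, with a median log2 fold change of 1.91 over the list, and the sum was 1266 to 1398 CPM in acute RA and 1477 to 1559 CPM in acute CS. Most of that sum in RA was Fbln5, at 1023 and 1135 CPM in acute RA F and M and 440 and 943 CPM in acute CS F and M, and without Fbln5, left out after its level had been seen, it was 243 to 263 CPM in acute RA and 534 to 1119 CPM in acute CS, with acute CS F the higher. Of 8 leukocyte markers 5 were higher (399 to 490 CPM and 3975 to 6887 CPM), with acute CS F the higher in sum. Epithelial markers, with 0 of 8 called by edgeR and 1 at an unadjusted p under 0.05, summed to 1035 to 1833 CPM in acute RA and to 8446 CPM (F) and 218 CPM (M) in acute CS. Of 6 lymphatic valve markers 1 was higher and 2 were lower, and the sum was 1284 to 1470 CPM in acute RA and 697 to 799 CPM in acute CS. No marker of these lists was at 0 in every library of a group. The part of other cell types in the levels of Notch4, Hey1, Dll1 and Hey2 was not tested.

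**Figure D3:**
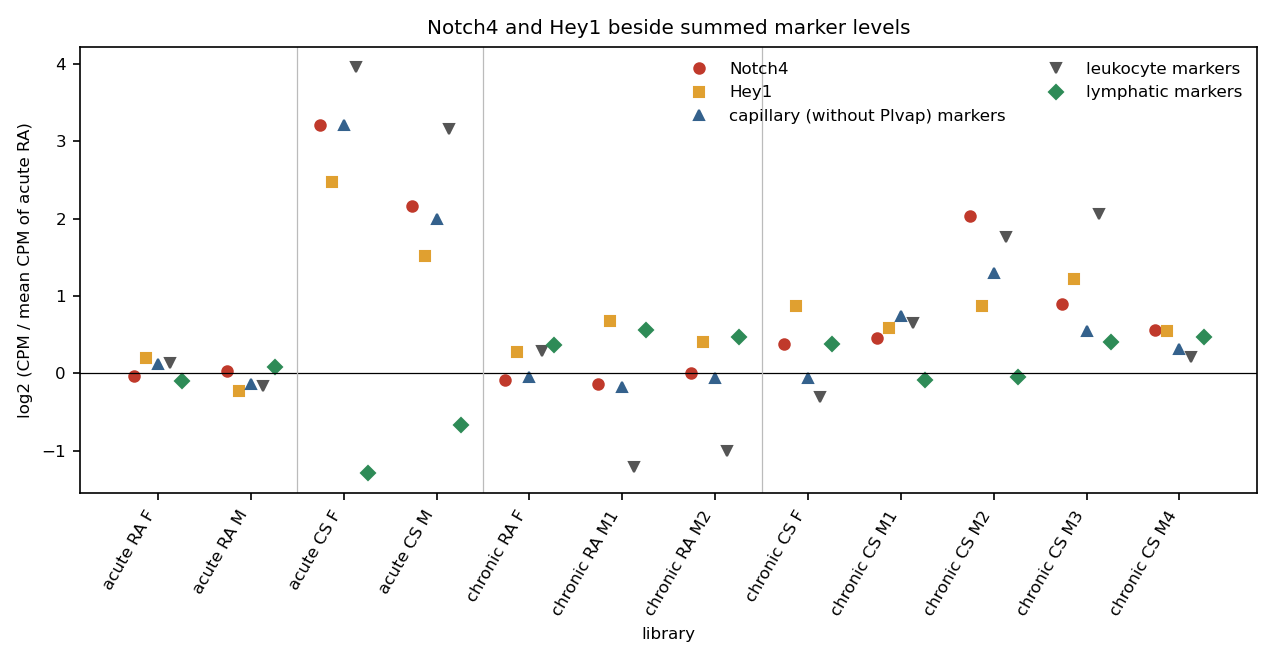
Level in each library relative to the mean of the 2 acute RA libraries (log2 of the CPM ratio) for Notch4, Hey1 and the summed capillary (without Plvap), leukocyte and lymphatic markers, with 1 symbol per gene or list. In acute CS, Notch4, Hey1 and the capillary and leukocyte sums all lay above 0 and the lymphatic sum below it, and in chronic CS the highest Notch4 (110 CPM) and the highest capillary sum without Plvap (1231 CPM) were both in M2, whereas with Plvap the sum was highest in M1 (3587 CPM).

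The second comparison asks the same of at least 24 weeks of CS. None of the 10 genes passed edgeR's adjusted test, where 0% of all genes tested did. At an unadjusted p under 0.05 there was 1 of the 10, against 10.9% of all genes (5.57% higher). DESeq2 called 0 of the 10, beside 357 higher and 167 lower among all 21440 genes. The groups did not overlap for 1 of the 10 genes, Notch4, against 9.41% of all genes tested (3.92% higher). The median log2 fold change of the 10 genes was 0.23, beside 0.01 for all genes.

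Notch4 was counted at 25.3, 24.5 and 26.9 CPM in chronic RA F, M1 and M2. In chronic CS it was counted at 35.0, 36.8, 110, 49.9 and 39.6 CPM in F and M1 to M4. Every one of the 5 smoke libraries lay above all 3 controls, and M2 stood well above the other 4. The log2 fold change was 1.09 (SE 0.38, unadjusted p = 0.0163 and adjusted p = 0.373 by edgeR), and an exact two-sided permutation test of log2 CPM gave p = 0.0357, the smallest that 5 against 3 libraries allow and not adjusted for the 10 genes. Without M2 the log2 fold change was 0.66 (adjusted p = 0.405 by edgeR). M2 also had the highest capillary sum without Plvap of the chronic libraries, 1231 CPM, against 442 to 483 CPM in chronic RA and 480 to 834 CPM in the other chronic CS libraries. With Plvap M1 was highest, at 3587 CPM, and M2, at 3113 CPM, lay below the 3131 to 3267 CPM of chronic RA. Other sums, of 3 lists, were higher in all 5 smoke libraries than in all 3 controls, as Notch4 was. The epithelial sum was 241 to 493 CPM in chronic RA and 1147 to 4923 CPM in chronic CS, highest in M3. The venous sum was 272 to 326 CPM and 375 to 626 CPM, and the mural and fibroblast sum 117 to 131 CPM and 179 to 306 CPM, both highest in M2. The leukocyte sum was 193 to 542 CPM in chronic RA and 359 to 1860 CPM in chronic CS, with M3 highest and M2 next at 1507 CPM. At an unadjusted p under 0.05 by edgeR, where no gene passed the adjusted test, 5 of 8 epithelial, 1 of 5 venous, 6 of 11 mural and fibroblast, 5 of 8 leukocyte and 4 of 10 capillary markers were higher and 1 capillary marker lower, while 5.57% of all genes tested were higher. Their part in the level of Notch4 was not tested.

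Notch2 was counted at 95.4, 103 and 99.3 CPM in chronic RA and at 211, 126, 130, 113 and 99.5 CPM in chronic CS F and M1 to M4. Of the smoke libraries 4 lay above all controls and F lay far above the rest, with a log2 fold change of 0.45 (SE 0.25, adjusted p = 0.525 by edgeR), which was 0.24 without F. Notch1 spanned 332 to 398 CPM in chronic RA and 298 to 484 CPM in chronic CS, so the controls lay inside the range of the smoke libraries. As a share of the receptor FPKM, Notch4 took 7.48% to 9.14% in chronic RA and 7.50% to 24.4% in chronic CS.

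No ligand passed in the chronic groups. Dll4 was counted at 360, 411 and 407 CPM in chronic RA and at 350 to 475 CPM in chronic CS, with a log2 fold change of 0.05 (SE 0.11, adjusted p = 0.897 by edgeR). Jag2 was counted at 129, 99.8 and 104 CPM in chronic RA and at 84.8, 105, 94.7, 62.9 and 84.6 CPM in chronic CS F and M1 to M4; 4 of the 5 smoke libraries lay below all controls, and the log2 fold change was -0.36 (SE 0.18, adjusted p = 0.491 by edgeR). Dll1 spanned 26.8 to 42.9 CPM in chronic RA and 28.6 to 71.3 CPM in chronic CS, and Jag1 78.6 to 85.9 CPM and 47.9 to 124 CPM. The highest Dll1 and the highest Jag1 were both in chronic CS M2, as was the highest Notch4.

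Of the targets, Hey1 was counted at 26.5, 34.7 and 28.9 CPM in chronic RA and at 40.0, 32.7, 39.7, 50.7 and 31.9 CPM in chronic CS F and M1 to M4. Of the smoke libraries 3 lay above all controls, M3 highest, and the log2 fold change was 0.38 (SE 0.23, adjusted p = 0.570 by edgeR). Hes1 spanned 283 to 393 CPM in chronic RA and 232 to 460 CPM in chronic CS, with a log2 fold change of -0.10 (SE 0.24, adjusted p = 0.910 by edgeR). Hey2 was counted at 0, 23 and 17 counts in chronic RA F, M1 and M2 and at 6, 0, 1, 66 and 140 counts in chronic CS F and M1 to M4. The 2 deeper smoke libraries, M3 and M4, held nearly all Hey2 counts of their group, at 1.42 and 3.17 CPM. For the genes other than Notch4 the exact two-sided permutation p ranged from 0.0714 for Notch2 to 0.821 for Hey2.

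The smoke effects of the time points were compared by their difference in the same fit. No Notch gene passed, against 0.452% of all genes tested, and 3 of the 10 had an unadjusted p under 0.05, against 11.9% (8.17% higher). Those 3 were Hey1, with an acute effect larger than the chronic one by 1.70 on the log2 scale (SE 0.39, adjusted p = 0.0923 by edgeR), Notch4 (1.69, SE 0.63, adjusted p = 0.308 by edgeR) and Dll1 (0.98, SE 0.44, adjusted p = 0.417 by edgeR). DESeq2 called Hey1 alone of the 10 (adjusted p = 0.00334), beside 680 higher and 236 lower among all 21440 genes. With edgeR, Hey1 passed without acute CS M (2.10, adjusted p = 0.0264) and Notch4 without chronic CS M2 (2.12, adjusted p = 0.0367). Without acute CS F the differences were 1.15 for Hey1 and 1.08 for Notch4 (adjusted p = 0.350 and 0.700 by edgeR), and over all fits without 1 library the adjusted p reached 0.407 for Hey1.

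**Figure D4:**
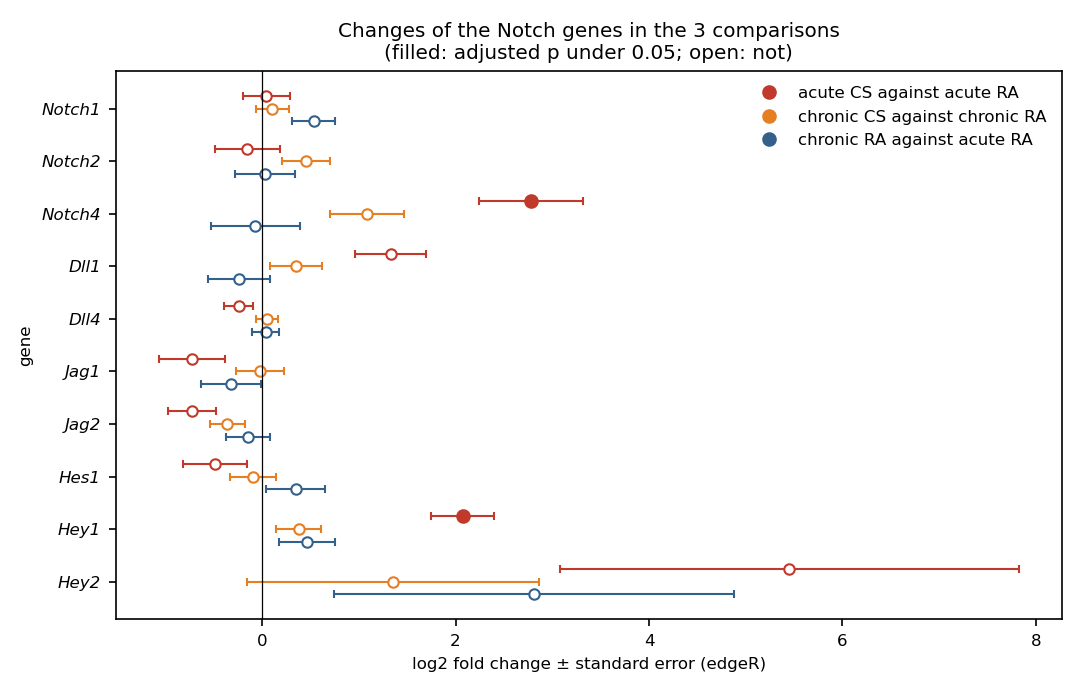
Log2 fold change (edgeR) ± standard error derived from F (horizontal axis) of each Notch gene in the 3 comparisons, as 3 points per gene, filled where the adjusted p was under 0.05. The filled points are Notch4 (2.78) and Hey1 (2.08) in acute CS, and the widest bars belong to Hey2, the gene with the fewest counts.

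Between the RA controls, chronic and acute, age, length of the experiment and pooling of mice cannot be told apart. None of the 10 genes passed edgeR's adjusted test, and 0% of all genes tested did. DESeq2 called 0 of the 10, beside 199 higher and 54 lower among all 21440 genes. At an unadjusted p under 0.05 by edgeR there was 1 of the 10, against 7.01% of all genes (4.52% higher). That gene was Notch1, counted at 221 and 273 CPM in acute RA and at 332, 398 and 342 CPM in chronic RA, a log2 fold change of 0.53 (SE 0.22, adjusted p = 0.700 by edgeR). All 3 older controls lay above both younger ones. Notch4 had a log2 fold change of -0.07 between the controls (SE 0.46, adjusted p = 1.0 by edgeR). The groups did not overlap for 4 of the 10 genes (Notch1, Hes1 and Hey1 higher and Jag1 lower in chronic RA), against 34.7% of all genes tested (17.7% higher and 17% lower). These controls also enter the comparisons with smoke.

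The rest of the pathway was followed in 66 other genes, of which 63 were tested. In acute CS 5 of the 63 rose and 0 fell, against 3.47% of all genes tested, and the median log2 fold change of the 63 was 0.12, beside 0.04 for all genes. Of these, 2 belong to the fringe glycosyltransferases, which add sugar to Notch and so tune its answer to Delta over Jagged ligands. Mfng was counted at 7.92 and 12.5 CPM in acute RA and at 121 and 57.8 CPM in acute CS (log2 fold change 3.13, adjusted p = 0.0145 by edgeR), and Lfng at 61.4 and 63.2 CPM and at 130 and 153 CPM (1.18, adjusted p = 0.0444 by edgeR). Rfng, the remaining fringe gene, had a log2 fold change of 0.16 (adjusted p = 0.801 by edgeR). The microfibril genes Mfap2 and Mfap5, whose products bind matrix and can bind Notch ligands or receptors, were higher by 2.99 and 2.63 on the log2 scale (adjusted p = 0.00790 and 0.0222 by edgeR). Mfap2 was counted at 19.6 and 17.4 CPM in acute RA and at 181 and 113 CPM in acute CS, and Mfap5 at 3.56 and 3.75 CPM and at 10.5 and 34.9 CPM. Nrp1, a VEGF and semaphorin co-receptor listed among other targets, was counted at 35.0 and 37.8 CPM in acute RA and at 815 and 371 CPM in acute CS (4.03, adjusted p = 0.00603 by edgeR). Both smoke libraries lay above both controls for all 5 genes, as for 27.4% of all genes tested. These 5 were named because they passed in the same libraries, so this adds no support. Over all genes, DESeq2 called 1428 higher and 498 lower in acute CS, and the fit of only the groups compared 137 and 2. The count of 5 fell to 0 without acute RA F, without acute RA M and with the replicate block, to 3 without acute CS F and to 1 with only the groups compared, and was 11 with DESeq2.

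Genes of receptor cleavage (0 of 10), of the nuclear complex and its corepressors (0 of 16), of ligand ubiquitination and endocytosis (0 of 6) and of receptor turnover (0 of 9) gave no call in acute CS with edgeR, where 3.47% of all genes tested were called. At an unadjusted p under 0.05, 0, 2, 1 and 1 of them were higher and 0 of each group lower, against 10.7% and 5% of all genes. Rbpj, the DNA-binding partner of all Notch receptors, had a log2 fold change of 0.10 (SE 0.35, adjusted p = 0.953 by edgeR), and Adam10, a protease of the first cut after a ligand binds, -0.58 (SE 0.30, adjusted p = 0.403 by edgeR). Notch3, the receptor of mural cells, was counted at 3 and 101 counts in acute RA and at 1729 and 485 counts in acute CS (adjusted p = 0.1004 by edgeR).

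In chronic CS 0 of the 63 other genes passed edgeR's adjusted test, 8 higher and 2 lower at an unadjusted p under 0.05, where 10.9% of all genes tested had one (5.57% higher). DESeq2 called 5 of the 63, beside 357 higher and 167 lower among all 21440 genes. The smallest p belonged to Mfap5 (log2 fold change 1.71, SE 0.40, adjusted p = 0.253 by edgeR), counted at 1.34 to 1.75 CPM in chronic RA and at 3.82 to 6.52 CPM in chronic CS without overlap. Next came Ep300, a histone acetyltransferase of the Notch nuclear complex (0.48, SE 0.12, adjusted p = 0.272 by edgeR), at 54.9 to 59.4 CPM and 67.1 to 94.9 CPM, also without overlap. Between the RA controls 0 of the 63 passed with edgeR, 6 higher and 3 lower at an unadjusted p under 0.05, where 7.01% of all genes tested had one (4.52% higher). DESeq2 called 2 of the 63, beside 199 higher and 54 lower among all genes. The smallest p-values there were those of Epn1, an endocytic adaptor (0.69, adjusted p = 0.479 by edgeR), and of Lfng (0.92, adjusted p = 0.481 by edgeR). Lfng stood at 97.9 to 135 CPM in chronic RA, a range that reached the level of acute CS. The difference of the smoke effects was past the limit for 0 of the 63 with edgeR (9 higher and 1 lower at an unadjusted p under 0.05), against 0.452% of all genes tested past the limit and 11.9% at that unadjusted p (8.17% higher), with the smallest p for Nrp1 (2.95, adjusted p = 0.0798 by edgeR) and the corepressor Tle1 (1.06, adjusted p = 0.119 by edgeR).

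The genes whose levels ran most like those of the 2 Notch genes that rose were sought among 14679 genes by Pearson's r of log2 CPM over the 12 libraries, which share groups and depth, so r is a description. For Notch4 they were Tmcc3 (r = 0.985), Tbx3 (0.982) and Hlx (0.981), and over the 10 libraries other than acute CS r was 0.953, 0.951 and 0.954. Tbx3 was counted at 21.6 CPM on average in acute RA, 264 CPM in acute CS, 17.2 CPM in chronic RA and 53.2 CPM in chronic CS, and is also one of the capillary markers listed. For Hey1 they were Ptprb (r = 0.978), an endothelial phosphatase, Lrrc8b (0.962) and Paqr7 (0.960), with 0.924, 0.866 and 0.862 without acute CS. Ptprb was counted at 238, 884, 257 and 351 CPM on average in the same order of groups.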

How the data were processed

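Polyadenylated RNA of the sorted LECs was sequenced in 12 libraries made with the SMART-Seq v4 and Nextera XT kits. The authors deposited raw read counts per Ensembl gene, after FastQC 0.11.9, trimming with Skewer 0.2.2, a quality step in Minion, and mapping by STAR on GRCm38, whose GeneCounts mode leaves out reads that overlap several genes. The annotation release and strand setting are not given in the sources used here. In GENCODE M21, whose names, lengths and positions were used, exons of other genes overlap 1482 bases of Notch1, 541 of Notch2, 867 of Dll1 and 214 of Dll4, so those levels are uncertain to that extent. Of the identifiers, 52489 were named and 147 were not, with at most 0.0110% of a library's counts.

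Genes passing edgeR's filter by expression (21440) were fitted in all 12 libraries at once, with a mean per group and TMM scaling, and tested by quasi-likelihood F in edgeR 4.0.16 (R 4.3.3), with Benjamini-Hochberg adjustment over all genes and a limit of 0.05. CPM use the same scaling, with a prior count of 2 where the log2 of a library's CPM was taken. The SE given with a log2 fold change is its absolute value divided by the square root of F. Exact permutation tests were two-sided, computed with scipy 1.17.1, and cannot go below 0.333 in the acute, 0.0357 in the chronic and 0.2 in the RA comparison. On simulated counts the procedure was tested with known changes. For a log2 change of 2 it called 28.3% of 106 genes (acute) and 41% of 100 (chronic), and for a change of 1 it called 4.71% of 85 and 9.3% of 86. No other tested gene was changed, of 20428 (acute) and 20463 (chronic), whereas the data gave 745 calls in acute CS. The adjusted limit depends on the share of genes that change, so these percentages hold for the simulated setting only.

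Samples were grouped by treatment and age in their labels. The genes, the pathway and marker lists and the alternatives were chosen with earlier results of these data known. Named beside the 10 Notch genes are the other pathway genes past the limit in a comparison (or, with none, the 2 with the smallest p), and the 3 nearest genes of each Notch gene that passed, among genes of at least 1 CPM on average. Rfng, Rbpj, Adam10 and Notch3 fall outside this rule and were chosen by role, after their values were seen. Alternatives were DESeq2 1.42.0, library size or RLE factors in place of TMM, no filter, sex as a covariate, a replicate block, a fit of only the groups compared, robust estimation, leaving out each library, and chronic CS split by depth. Marker sums without Plvap or Fbln5 were added after seeing the data. No protein sequence was used.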

Additional observations from a re-analysis of the deposited data

Results flagged for a closer look

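In 2 cases a library lay far from the others of its group, by Dixon's 95% criterion on the gap to the nearest value as a share of the group's range (0.71 for 5 samples). Notch2 in chronic CS F was one, with a ratio of 0.724, where F was counted at 211 CPM and the next library, M2, at 130 CPM. Notch4 in chronic CS M2 was the other, with a ratio of 0.801, where M2 was counted at 110 CPM and the next library, M3, at 49.9 CPM. Chance alone marks about 1 in 20 groups. Groups of 2 and 3 libraries could not be examined in this way.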

How the results depend on the processing

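Notch4 and Hey1 kept their direction in acute CS under all 12 alternatives. With the replicate block both calls were lost (log2 fold change 2.69, adjusted p = 0.0769 by edgeR, and 2.02, adjusted p = 0.0513), leaving 0 of the 10 Notch genes and 0 of the other pathway genes called and 68 genes higher and 5 lower over all genes. The labels F and M of the acute libraries are the sex, and chronic labels add a number to M. Neither is stated to mark a shared litter or day, and deviations of same-labelled libraries correlated at r = 0.0693 in the acute and -0.0419 to 0.0342 in the chronic groups. With only the groups compared, 0 Notch genes and 1 other pathway gene were called in acute CS, and 1 other pathway gene between the RA controls. DESeq2 called 11 other pathway genes in acute CS, 5 in chronic CS and 2 between the controls, and 1 Notch gene in the difference of effects. Without single libraries, 0 to 2 Notch genes and 0 to 6 other pathway genes were called in acute CS, and 0 to 1 Notch genes in the difference. Over all genes, where edgeR called 590 higher and 155 lower in acute CS and 0 in the chronic and control comparisons, DESeq2 called 1428 and 498, 357 and 167, and 199 and 54, only the groups compared gave 137 and 2 in acute CS and 38 and 4 between controls, and no filter on low counts gave 9 and 1 in chronic CS and 6 and 0 between controls. In acute CS 652 were higher without acute CS M, 157 without acute CS F, 65 without acute RA F and 3 without acute RA M. For the difference of effects, 86 higher and 11 lower became 680 and 236 with DESeq2, 165 and 26 with no filter, 21 and 0 with sex as a covariate and 0 and 0 with the block. Dll1 passed in acute CS with DESeq2 and with no filter on low counts (adjusted p = 0.0484 by edgeR). Every direction that turned belonged to an effect that did not pass. Without single libraries, log2 fold changes spanned -0.26 to 0.30 for Notch1 and -0.66 to 0.22 for Notch2 in acute CS, -0.011 to 0.0998 for Dll4, -0.22 to 0.14 for Jag1 and -0.291 to 0.0618 for Hes1 in chronic CS, and -0.12 to 0.17 for Notch2 and -0.0506 to 0.112 for Dll4 between controls. Jag1 in chronic CS became 0.0149 with DESeq2, 0.066 with library size, 0.015 with RLE factors and 0.007 in M3 and M4 alone, where Notch1 became -0.10. Hey2 in chronic CS, with a log2 fold change of 1.35 (SE 1.51), became -2.04 with the block and -1.72 in F, M1 and M2 alone. Library size in place of TMM moved the median of all genes between the controls to -0.10, with Notch2 at -0.0806 and Dll4 at -0.0711. The cause was not tested. In the simulated counts, with 2 libraries in each acute group, most changes of a log2 fold of 1 were not called.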
